A study of Mus musculus with 8 samples.

Results

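The 10 MAPK feedback genes *Dusp4*, *Dusp6*, *Spry1*, *Spry2*, *Spry4*, *Spred1*, *Spred2*, *Etv1*, *Etv4*, and *Etv5* were followed in mouse primary oligodendrocyte precursor cells (OPCs) as these differentiated into oligodendrocytes (OLs). They were taken by symbol, 1 row each, from the 23427 genes of the mRNA-seq table. The OPCs came from the cortices of 3 wild-type C57BL/6J pups at postnatal day 7 and were captured on an antibody against PDGFRα. On Day 0 the cells were in growth medium with the mitogen PDGF-AA and with CNTF (each 10 ng/mL). Differentiation was induced by leaving out PDGF-AA and adding the thyroid hormone T3 (40 ng/mL), and RNA was read on Day 1, Day 2, and Day 3, with 2 libraries on each of the 4 days. Whether CNTF was kept is not given in the sources used here, and the sample labels name a serum medium instead. Because PDGF-AA left and T3 came at the same step, and no library had only 1 of these changes, their parts in any change from Day 0 cannot be told apart.

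PDGF-AA binds PDGFRα, a receptor tyrosine kinase, which passes its signal through Ras, Raf, and MEK to the kinase ERK and thereby keeps OPCs dividing. ERK activity induces the transcription of genes whose products limit the same pathway. The dual-specificity phosphatases remove the activating phosphates from MAP kinases, the Sprouty and Spred proteins hold back Ras and Raf, and *Etv1*, *Etv4*, and *Etv5* encode the PEA3 group of ETS transcription factors, which are induced by growth factor signals and whose transcription the repressor Capicua restrains until ERK inactivates it. The mRNA levels of these genes are therefore often read as a record of recent ERK activity, which was itself not measured here.

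Levels are in FPKM, fragments scaled to transcript length and to the mapped fragments of the library, so that they can be compared between genes. The libraries were shallow. Depth, read from the steps between low FPKM values, was 960000 to 1530000 fragments, and Day 3 was the shallowest day. Markers of the OPC (7 genes) summed to a mean of 2537 FPKM on Day 0 and 1184 FPKM on Day 3, and those of the OL (7 genes) to 931 and 22948 FPKM. Of the Day 3 OPC sum, *Sox10* gave 436, *Olig1* 401, *Gpr17* 151, and *Olig2* 135 FPKM. In means *Pdgfra* fell from 443 to 17.9 FPKM, *Cspg4* from 58.5 to 0.90 FPKM, and *Ptprz1* from 261 to 42.1 FPKM. By limma *Sox10* was not called on Day 3 (log2 fold change 0.19, adjusted p = 0.388). It was higher on Day 1 (0.60, adjusted p = 0.0494), as was *Gpr17* (0.82, adjusted p = 0.0401), while the other 5 were lower. Of the cell types that could remain after the capture, the microglial markers summed to at most 2.51 FPKM, with *Aif1*, *Cx3cr1*, *Csf1r*, *Tmem119*, and *C1qa* at 0 in every library, and the endothelial markers to at most 0.428 FPKM, with *Cldn5*, *Cdh5*, and *Tek* at 0. Neuronal markers (7 genes, *Gad1* at 0) summed to a mean of 47.9 FPKM on Day 0 and 174 FPKM on Day 3, with replicate 1 the higher on all 4 days. Most of this was *Tubb3*, a tubulin gene (20.8 to 231 FPKM), which rose by Day 3 (2.15, adjusted p = 0.0206), while *Snap25* was at 8.46 FPKM or less and *Syt1* at 2.05 FPKM or less. Mural markers (5 genes, among them *Cspg4*, which OPCs express too, with *Rgs5* and *Des* at 0) summed to 51.5 and 67.1 FPKM on Day 0 and to 1.36 to 5.40 FPKM later. Astrocyte markers (8 genes, *Gjb6* at 0) summed to 121, 173, 133, and 150 FPKM from Day 0 to Day 3 in replicate 1. In replicate 2, which was the higher on all 4 days, they rose, at 356, 523, 628, and 912 FPKM. *Gfap* gave 603 FPKM of the Day 3 sum in replicate 2 and 45.5 FPKM in replicate 1. By limma 0 of the 7 tested were called on Day 3. With the replicate number as a block 2 were higher (13.2% of all genes tested were). They were *Gfap* (log2 fold change 1.76, adjusted p = 1.26e-04) and *Aqp4* (1.62, adjusted p = 7.35e-04). Whether this rise had a part in the changes below was not tested.

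On Day 0 the feedback genes covered a wide range of levels. *Etv5* was highest at 74.97 ± 1.33 FPKM (SD, n = 2). *Etv1* and *Spred1* followed at 45.5 ± 3.04 and 45.0 ± 1.77 FPKM, with replicates that overlapped, and then *Spry1* at 36.8 ± 0.182, *Spry2* at 30.9 ± 4.47, and *Spred2* at 23.3 ± 1.53 FPKM, each apart from its neighbors. *Dusp6*, *Etv4*, and *Spry4* lay together at 9.64 ± 2.51, 9.24 ± 1.23, and 8.63 ± 0.652 FPKM, and *Dusp4* was lowest at 2.82 ± 1.71 FPKM. By Day 1 this order had turned, with *Spred1* first at 34.7 ± 3.68 FPKM and *Etv5* sixth of the 10 at 4.06 ± 0.619 FPKM.

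**Figure D1:**
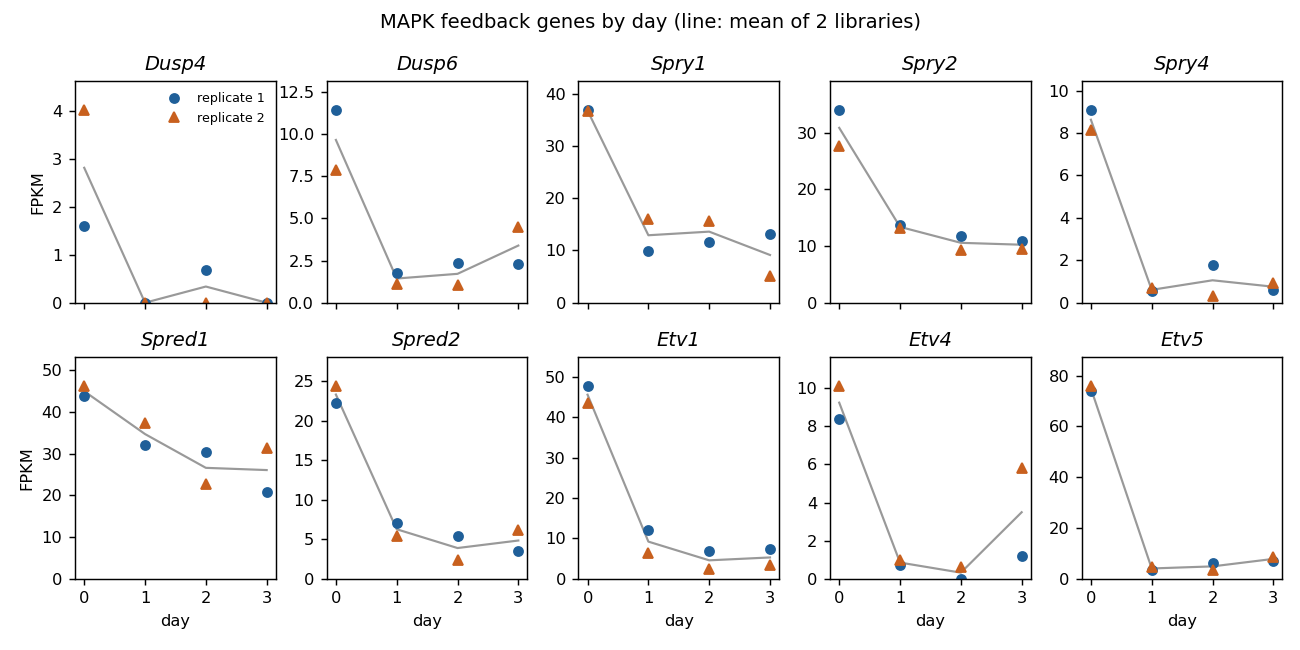
FPKM (y axis, from 0, a scale for each gene) of the 10 MAPK feedback genes on Day 0 to Day 3 (x axis), with circles for replicate 1, triangles for replicate 2, and a line through the mean of the 2 libraries. Both Day 0 libraries lie above all 6 later libraries in every panel, and *Spred1* shows the shallowest fall on Day 1.

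From Day 0 to Day 1, 9 of the 10 feedback genes fell (limma on log2(FPKM + 1), adjusted p under 0.05), where 7.56% of the 12208 genes tested did. None rose (5.04% of all genes tested did). With the replicate number as a block 9 fell too, where 9.01% of all genes did. The median of the 10 log2 fold changes was −1.99, against −0.07 over all genes tested, and each of the 10 was below 0 in both replicate series. Both Day 0 libraries were above all 6 later libraries for all 10 genes, a pattern that 26.0% of all genes tested showed. All 10 passed the filter of 1 FPKM in 2 libraries, but *Dusp4* and *Spry4* passed only through their Day 0 libraries, so that these 2 had to be lower later. In bulk RNA, fewer cells that express a gene and less of its RNA per cell cannot be told apart.

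The Day 1 calls rested on few libraries. Without Day 0 replicate 1 or without Day 0 replicate 2, 3 feedback genes were called lower on Day 1, without Day 1 replicate 1, 6 were, and without Day 1 replicate 2, 2 were. With fewer libraries all genes were called less often too, with 2.94% and 3.01% lower without the 1 or the other Day 0 library, 5.93% without Day 1 replicate 1, and 3.59% without Day 1 replicate 2.

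Among the ETS factors, *Etv5* (chromosome 16, 22381309 to 22439719, minus strand, GRCm38) had the largest fall of the 10. It was at 74.0 and 75.9 FPKM on Day 0 (replicate 1 and replicate 2), 3.63 and 4.50 FPKM on Day 1, 6.23 and 3.54 FPKM on Day 2, and 7.20 and 8.47 FPKM on Day 3. The 2 Day 0 libraries stood apart from the 6 later ones by a wide gap, with 434 and 356 fragments of *Etv5* on Day 0 against 17 to 31 later. The log2 fold change on Day 1 was −3.91 (SE 0.26, adjusted p = 7.48e-04), an 18.4-fold lower mean FPKM and rank 57 from the lowest among the 12208 genes. *Etv5* was called lower on Day 1 and on Day 3 under each of the 17 alternative settings and left-out libraries tried.

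*Etv1* (chromosome 12, 38779380 to 38870484, plus strand), the second PEA3 gene by Day 0 level, was at 47.7 and 43.4 FPKM on Day 0, 11.998 and 6.394 FPKM on Day 1, 6.76 and 2.38 FPKM on Day 2, and 7.25 and 3.30 FPKM on Day 3. Replicate 1 was the higher on every day. The log2 fold change was −2.25 on Day 1 (SE 0.47, adjusted p = 0.0169) and −2.96 on Day 3 (SE 0.47, adjusted p = 0.00181). *Etv4* (chromosome 11, 101769742 to 101785371, minus strand), the third, was at 8.37 and 10.1 FPKM on Day 0, 0.698 and 1.00 FPKM on Day 1, 0 and 0.643 FPKM on Day 2, and 1.18 and 5.81 FPKM on Day 3. In fragments these were 30 and 29, then 2 and 3, 0 and 2, and 3 and 13, so that the later values rest on few reads. It fell by 2.47 on the log2 scale by Day 1 (SE 0.53, adjusted p = 0.0194).

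Of the Sprouty genes, *Spry4* (chromosome 18, 38586247 to 38601415, minus strand) fell most. It was at 9.09 and 8.17 FPKM on Day 0, 0.533 and 0.681 FPKM on Day 1, 1.79 and 0.327 FPKM on Day 2, and 0.599 and 0.910 FPKM on Day 3. Its 6 later libraries held 2 to 10 fragments each, against 64 and 46 on Day 0. The log2 fold change was −2.58 on Day 1 (SE 0.40, adjusted p = 0.00443), which as a ratio of mean FPKM was 14.2-fold, and −2.46 on Day 3 (SE 0.40, adjusted p = 0.00209). The annotation places 2 short noncoding RNA genes on the opposite strand within *Spry4*, and whether fragments were counted by strand is not given in the sources used here.

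*Spry2* (chromosome 14, 105891947 to 105896819, minus strand) was at 34.0 and 27.7 FPKM on Day 0, 13.7 and 13.1 FPKM on Day 1, 11.8 and 9.36 FPKM on Day 2, and 11.0 and 9.50 FPKM on Day 3. Its replicates stayed close, and its fall was smaller but well resolved, at −1.14 on Day 1 (SE 0.20, adjusted p = 0.00827) and −1.50 on Day 3 (SE 0.20, adjusted p = 8.54e-04). *Spry1* (chromosome 3, 37639947 to 37644598, plus strand, with a gene model of uncertain status opposite to it) was at 36.9 and 36.7 FPKM on Day 0, 9.82 and 16.0 FPKM on Day 1, 11.5 and 15.7 FPKM on Day 2, and 13.3 and 5.03 FPKM on Day 3. Here the later replicates differed widely. The log2 fold change was −1.48 on Day 1 (SE 0.40, adjusted p = 0.0452), a call that 11 of the 17 alternatives did not give, and −2.03 on Day 3 (SE 0.40, adjusted p = 0.00488), a call that each of the 17 alternatives gave.

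The 2 Spred genes differed in when they were called. *Spred2* (chromosome 11, 19924375 to 20024026, plus strand) was at 22.2 and 24.4 FPKM on Day 0, 7.10 and 5.45 FPKM on Day 1, 5.43 and 2.35 FPKM on Day 2, and 3.51 and 6.18 FPKM on Day 3. It fell by 1.75 on the log2 scale by Day 1 (SE 0.37, adjusted p = 0.0173) and by 2.09 by Day 3 (SE 0.37, adjusted p = 0.00290). *Spred1* (chromosome 2, 117121374 to 117182279, plus strand) was at 43.7 and 46.2 FPKM on Day 0, 32.1 and 37.3 FPKM on Day 1, 30.4 and 22.8 FPKM on Day 2, and 20.8 and 31.3 FPKM on Day 3. It was the 1 feedback gene that did not pass the test on Day 1, with a log2 fold change of −0.37 (SE 0.22, adjusted p = 0.340), although neither Day 1 library reached a Day 0 library. On Day 3 it was called lower at −0.79 (SE 0.22, adjusted p = 0.0238), a call that 5 of the 17 alternatives did not give.

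Of the phosphatase genes, *Dusp4* had the lowest Day 0 level of the 10 genes, and *Dusp6* lay beside *Etv4* and *Spry4*. *Dusp6* (chromosome 10, 99263231 to 99267489, plus strand), whose product is a cytoplasmic phosphatase selective for ERK, was at 11.4 and 7.87 FPKM on Day 0, 1.75 and 1.12 FPKM on Day 1, 2.35 and 1.07 FPKM on Day 2, and 2.29 and 4.48 FPKM on Day 3. These were 49 and 27 fragments on Day 0 and 4 to 12 in each later library. The log2 fold change was −2.12 on Day 1 (SE 0.39, adjusted p = 0.0102) and −1.30 on Day 3 (SE 0.39, adjusted p = 0.0314), and 8 of the 17 alternatives did not give the Day 3 call. *Dusp4* (chromosome 8, 34807297 to 34819894, plus strand), whose product is a nuclear phosphatase, was at 1.61 and 4.03 FPKM on Day 0, 0.677 FPKM in Day 2 replicate 1, and listed at 0 in the other 5 libraries. That was 6 and 12 fragments on Day 0 and 2 fragments afterwards. Against a floor of 3 fragments over each later group, the 18 fragments summed over Day 0 gave a fall of at least 5.44-fold on Day 1 and at least 4.45-fold on Day 3. These values take the Day 0 sum as exact and do not cover its counting error or the spread between libraries. Day 0 replicate 1 alone, with 6 fragments, would give less. The fitted log2 fold change, −1.86 on both days (adjusted p = 0.0270 on Day 1 and 0.0110 on Day 3), depends on the pseudocount and is no bound. With the log2 of the 5.44-fold and 4.45-fold falls in its place, the median of the 10 genes was −2.18 on Day 1 and −2.06 on Day 3. These medians mix 2 scales, as the folds of *Dusp4* carry no pseudocount and the other genes have 1 FPKM added.

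**Figure D2:**
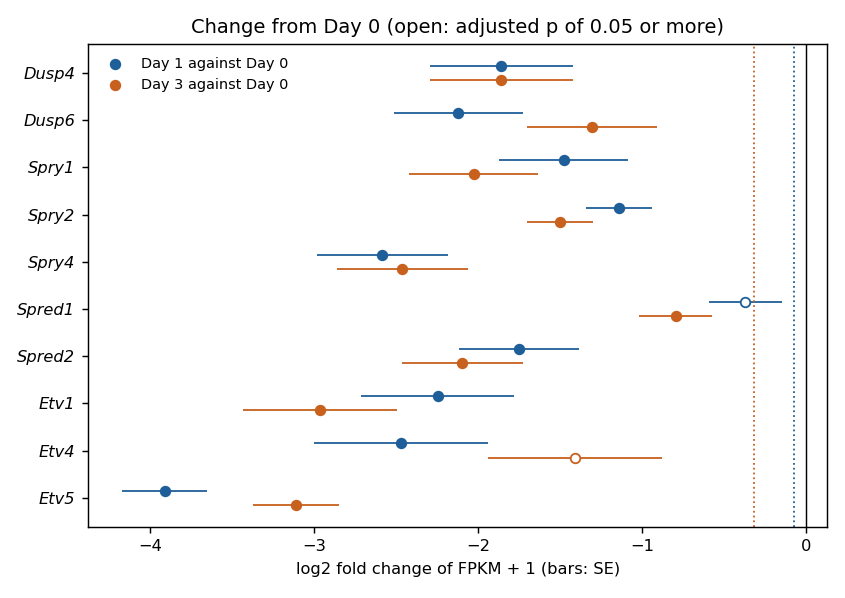
Log2 fold change of FPKM + 1 (x axis, bars show ± SE) of each feedback gene (y axis) on Day 1 and Day 3 against Day 0, 2 libraries a day. Dotted lines mark the medians over all genes tested (−0.07 on Day 1 and −0.31 on Day 3), and every point lies to the left of the line of its day, with *Etv5* farthest on both days.

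Among the 12208 genes, counted from the lowest Day 1 log2 fold change, the ranks were 57 for *Etv5*, 215 for *Spry4*, 236 for *Etv4*, 282 for *Etv1*, 321 for *Dusp6*, 411 for *Dusp4*, 456 for *Spred2*, 573 for *Spry1*, 894 for *Spry2*, and 3527 for *Spred1*. On the scale with 1 FPKM added, a low gene has little room to fall, which bounds *Dusp4*, *Spry4*, and *Etv4* in this order.

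**Figure D3:**
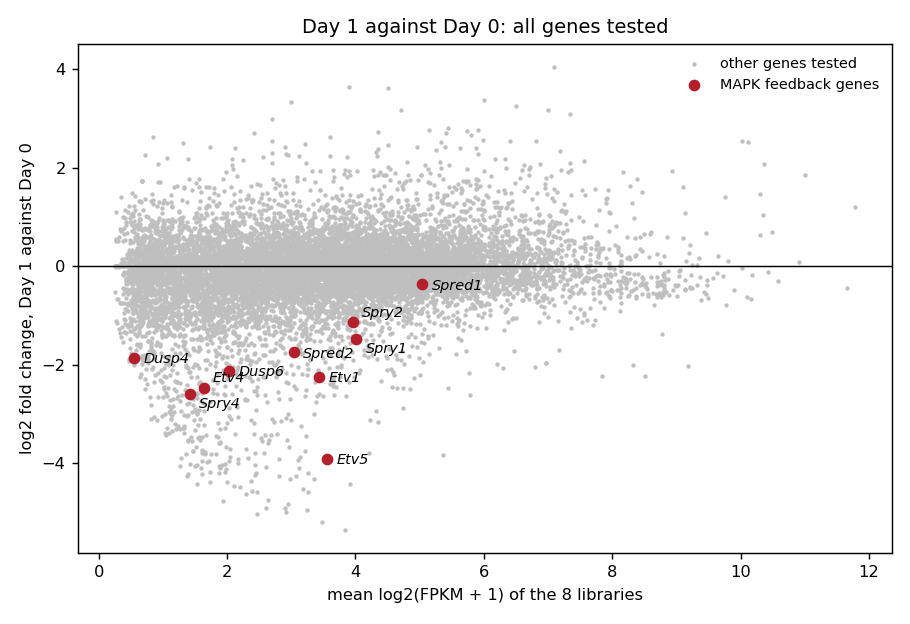
Log2 fold change on Day 1 against Day 0 (y axis) over the mean log2(FPKM + 1) of the 8 libraries (x axis) for the 12208 genes tested (gray) with the 10 feedback genes in red. *Etv5* lies at −3.91, *Spred1* within the cloud at −0.37, and the other 8 between −2.58 and −1.14.

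The promoters of these genes were searched for motifs of factors linked to the pathway, in RefSeq windows (GRCm38.p6) from 250 bases before to 50 after an annotated start. Windows were at hand for 7 of the 10 genes, 9 windows in all, with a median of 60.0% G and C against 52.7% over all 32851 windows. Searched on both strands were the 4 Capicua octamers TGAATGAA, TGAATGGA, TCAATGAA, and TCAATGGA, the ETS core CCGGAA, the AP-1 motif TGANTCA, and the cAMP response element TGACGTCA. None of these is contained in another. The 3 windows shown are that of *Dusp6*, with a pair of Capicua octamers, that of *Spry2*, with 1 Capicua octamer and 1 ETS core, and that of *Etv5*, the gene with the largest fall, in which none was found. Capitals mark the matches, as read on the strand of the gene. They are chr10:99262981-99263280 (plus strand) for *Dusp6*, chr14:105896770-105897069 (minus strand) for *Spry2*, and chr16:22439521-22439820 (minus strand) for *Etv5*.
Dusp6: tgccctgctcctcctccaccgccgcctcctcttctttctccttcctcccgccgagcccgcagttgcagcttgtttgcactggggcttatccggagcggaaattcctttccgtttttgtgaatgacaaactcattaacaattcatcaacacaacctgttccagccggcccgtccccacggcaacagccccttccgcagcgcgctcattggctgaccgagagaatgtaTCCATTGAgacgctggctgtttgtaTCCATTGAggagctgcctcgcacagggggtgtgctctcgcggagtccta
Spry2: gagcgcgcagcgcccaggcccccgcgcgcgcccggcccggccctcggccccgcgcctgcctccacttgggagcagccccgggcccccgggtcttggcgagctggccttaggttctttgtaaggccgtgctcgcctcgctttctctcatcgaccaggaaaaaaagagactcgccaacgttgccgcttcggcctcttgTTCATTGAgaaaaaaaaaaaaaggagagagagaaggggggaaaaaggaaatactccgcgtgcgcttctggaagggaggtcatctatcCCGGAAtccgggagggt
Etv5: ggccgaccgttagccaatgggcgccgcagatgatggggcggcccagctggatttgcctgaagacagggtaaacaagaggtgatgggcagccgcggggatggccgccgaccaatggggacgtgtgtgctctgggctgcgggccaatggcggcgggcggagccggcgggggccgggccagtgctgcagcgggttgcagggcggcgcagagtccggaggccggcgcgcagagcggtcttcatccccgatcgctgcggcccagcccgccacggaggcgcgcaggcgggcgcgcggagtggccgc

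The octamer TCAATGGA, found in *Dusp6* on the opposite strand, was in 0.670% of all windows, TCAATGAA, found in *Spry2* on the opposite strand, in 0.749%, and the ETS core of *Spry2* in 14.9%. TGAATGAA (1.30% of all windows), TGAATGGA (1.21%), TGANTCA (7.81%), and TGACGTCA (1.79%) were in none of the 9 windows. The windows of *Spry1*, *Spred1*, *Spred2*, and both windows of *Etv1* and of *Etv5* held none of the 7 motifs. A match is a description of letters, and neither a match nor its absence bears on binding.

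After Day 1 no feedback gene passed the test from 1 day to the next. From Day 1 to Day 2, 0 of the 10 were called by limma in either direction, with or without the replicate block (1.73% of all genes tested were lower and 2.16% higher), and 0 had an unadjusted p under 0.05. From Day 2 to Day 3, 0 were called by limma, again with or without the block (0.0491% lower and 0.246% higher), and *Etv4* and *Etv5* had an unadjusted p under 0.05. For each gene the part of its Day 0 to Day 3 fall that was present by Day 1 was computed on the log2 scale. Each Day 1 library was set against the means of the Day 0 and the Day 3 libraries, not within its replicate number. The 2 Day 1 libraries, lower value first, gave 33.2% and 59.8% for *Spred1*, 56.8% and 89.0% for *Spry1*, and 74.2% and 77.9% for *Spry2*. They gave 75.7% and 91.4% for *Spred2*, and 62.0% and 89.5% for *Etv1*. Within the replicate numbers *Spry1* went both ways from Day 1 to Day 3, by 0.40 in replicate 1 and −1.50 in replicate 2 on the log2 scale. The part was above 100% in both Day 1 libraries for *Spry4* (102% and 108%), *Etv5* (122% and 130%), *Dusp6* (148% and 177%), and *Etv4* (167% and 184%). Their mean was thus lower on Day 1 than on Day 3. For *Spry4* this difference was small (0.12 on the log2 scale), with 7 fragments on each of these days and libraries that overlapped.

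Day 3 was therefore also compared with Day 1, a comparison chosen after these values were seen. By limma 0 of the 10 were called (12.2% of all genes tested were lower and 7.04% higher), and 1, *Etv5*, had an unadjusted p under 0.05. Both Day 3 libraries were above both Day 1 libraries for *Etv5*, *Etv4*, and *Dusp6*, a pattern of 19.1% of all genes tested, and below them for *Spry2* and *Spred1*, a pattern of 40% of all genes. *Etv5* was 0.80 higher on the log2 scale (SE 0.26, adjusted p = 0.0662, and 0.0627 with the replicate number as a block). Under median ratio scaling it was 1.00 higher with an adjusted p of 0.0341, and under quantile normalization with 0.0295. Its 30 and 31 fragments on Day 3 compare with 434 and 356 on Day 0, so that *Etv5* remained far below its starting level.

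*Etv4* differed between the Day 3 libraries, at 3 fragments in replicate 1 and 13 in replicate 2. Summed over both libraries and set against the depth, 16 fragments on Day 3 against 2 on Day 2 gave a ratio of 9.95 with an exact 95% interval of 2.34 to 89.2, which covers counting error only. The fitted difference was 1.59 on the log2 scale (SE 0.53, adjusted p = 0.214, and 0.0991 with the replicate block). It was 2.41 and called (adjusted p = 0.0482) without Day 3 replicate 1. *Dusp6*, *Spry4*, *Spred1*, *Spred2*, and *Etv5* were also higher in Day 3 replicate 2 than in replicate 1, and *Spry1*, *Spry2*, and *Etv1* were lower. Day 3 replicate 2 was the shallowest library and had the highest sum of astrocyte markers, 912 FPKM against 150 FPKM in replicate 1, and the part of either in these differences was not tested.

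From Day 0 to Day 3, 9 of the 10 feedback genes were called lower, where 26.3% of all genes tested were, and 0 were higher (12% of all genes were). Among the 9 were *Dusp4* and *Spry4*, which passed the filter only through their Day 0 libraries and so had to be lower later. The median log2 fold change was −1.94 against −0.31 over all genes. *Etv5*, which again had the largest fitted change, fell by 3.11 on the log2 scale (SE 0.26, adjusted p = 1.30e-04), which is 9.57-fold in mean FPKM, and *Etv1* was 8.63-fold lower. *Spry4* was 11.4-fold lower in mean FPKM, on 7 fragments over the 2 Day 3 libraries. *Etv4* was not called, at −1.41 (SE 0.53, adjusted p = 0.0679). With the replicate number as a block it was called lower (adjusted p = 0.0242), and all 10 genes then were, where 29.1% of all genes tested were. Without Day 3 replicate 2, *Etv4* was at −2.23 (adjusted p = 0.0116) and all 10 were called lower, while without Day 3 replicate 1 it was at −0.58 (adjusted p = 0.334) and 7 of the 10 were. Over all alternatives the adjusted p of *Etv4* on Day 3 ran from 0.0116 to 0.334. Without Day 0 replicate 1, 7 of the 10 were called lower on Day 3, and without Day 0 replicate 2, 6 were.

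On Day 3 the median log2 fold change of all genes lay below 0, and whether scaling or falling genes set it was not tested. Of all genes tested, 3207 were lower and 1460 higher on Day 3, and under median ratio scaling, which moved the median of all genes to −0.04, 2045 were lower and 2137 higher. Relative to the median of all genes the 10 feedback genes were at −2.79 to −0.48 on the log2 scale. Under median ratio scaling 7 of the 10 were called lower and under quantile normalization 8 were. *Dusp6* (adjusted p = 0.0767 and 0.117) lost its call in both, and *Spred1* (log2 fold change −0.48, adjusted p = 0.144) under median ratio scaling. No feedback gene changed direction under any scaling tried.

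Related genes were compared in pairs by the difference of their slopes on day, in log2(FPKM + 1) per day over the 8 libraries. In 8 pairs none differed after adjustment (2-sided exact permutation test over 2520 arrangements, Benjamini-Hochberg over the 8 pairs). These arrangements move the libraries freely across replicate numbers. Over the 576 that keep the numbers together, as a replicate block, the adjusted p was 0.259 to 0.802, and no pair differed either. The smallest raw p was 0.05, for *Spred1* against *Spred2*, whose slope was 0.42 higher (adjusted p = 0.400). Among the PEA3 genes the slopes differed by −0.51 for *Etv1* against *Etv4* (exact p = 0.182, adjusted 0.485), by 0.44 for *Etv4* against *Etv5* (exact p = 0.126, adjusted 0.485), and by −0.07 for *Etv1* against *Etv5* (exact p = 0.829, adjusted 0.829). *Spry2* against *Spry4* differed by 0.23 (exact p = 0.256, adjusted 0.513), *Spry1* against *Spry4* by 0.11 (exact p = 0.650, adjusted 0.743), *Spry1* against *Spry2* by −0.12, and *Dusp4* against *Dusp6* by −0.14 (adjusted p = 0.659 by the exact test for both). A slope over 4 days reads a fall that is complete by Day 1 poorly, and these tests do not show that the genes of a pair moved alike.

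The other genes of the pathway moved in both directions. Of 80 genes tested in 8 lists, 8 were lower and 7 higher on Day 1, and 16 were lower and 16 higher on Day 3. Among all genes tested, 7.56% were lower and 5.04% higher on Day 1, and 26.3% lower and 12% higher on Day 3. With 1 library left out, the lists gave 2 to 9 lower and 2 to 8 higher on Day 1 and 9 to 16 lower and 10 to 16 higher on Day 3, with the fewest lower, on both days, without Day 0 replicate 2. Of 8 ligands, *Tgfa*, a ligand of the EGF receptor, fell by Day 3 (−0.51, adjusted p = 0.0433), a call that none of the 3 scalings tried gave. It was higher on Day 1 (0.78, adjusted p = 0.0192), as was *Pdgfa*, which encodes the chain of the withdrawn mitogen and was at 8.73 FPKM on Day 0, 36.5 FPKM on Day 1, 54.9 FPKM on Day 2, and 14.2 FPKM on Day 3 (means). Of 11 receptor genes 3 were lower and 1 higher on Day 3. *Pdgfra*, the receptor of PDGF-AA, was at 490 and 396 FPKM on Day 0, 78.2 and 11.2 FPKM on Day 1, and 29.2 and 6.53 FPKM on Day 3, a log2 fold change of −4.87 on Day 3 (SE 1.00, adjusted p = 0.00622), and *Fgfr2*, an FGF receptor, rose by 3.72 (adjusted p = 8.42e-05).

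Of 13 adaptor and Ras genes 4 were higher and 0 lower by limma on Day 3 (1 lower with the replicate block), and *Rras2*, a Ras-like GTPase, rose most (3.40). Of 6 Ras GTPase activator genes, which switch Ras off, 4 were lower and 0 higher, and *Rasa2* fell most (−1.85). Of 14 genes of the Raf, MEK, and ERK kinases and their scaffolds and targets, 9 were not called on Day 3. *Mapk3*, which encodes ERK1, rose by 2.81 (SE 0.25, adjusted p = 1.51e-04) from 31.3 and 18.4 FPKM to 163 and 188 FPKM.

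Among the genes nearest in kind to the feedback genes, the lists moved in both directions. Of 6 other dual-specificity phosphatases 4 were higher and 0 lower on Day 3, in contrast to *Dusp4* and *Dusp6*. They were *Dusp7*, an ERK phosphatase, which rose most (1.73, adjusted p = 1.68e-04) from a mean of 10.5 to 37.2 FPKM, and *Dusp8*, *Dusp10*, and *Dusp16*, whose products act mainly on JNK and p38. Of 8 other feedback and ERK-responsive genes 4 were lower and 1 higher by limma (2 higher with the replicate block). The gene that the block added, *Phlda1*, was at means of 44.9 FPKM on Day 0, 5.33 FPKM on Day 1, and 88.1 FPKM on Day 3. Its log2 fold change was −2.87 on Day 1 (adjusted p = 0.00161). On Day 3 it was 0.92 (adjusted p = 0.0704, and 0.0496 with the block). *Ccnd1*, the cyclin of the G1 phase, fell most, from 124 and 158 FPKM on Day 0 to 9.24 and 3.30 FPKM on Day 1 and 11.4 and 9.62 FPKM on Day 3 (−3.62, SE 0.38, adjusted p = 2.94e-04), and *Epha4*, an ephrin receptor, rose most (2.26). *Spred3*, the third Spred gene, was at 10.9 and 18.1 FPKM on Day 0 and at 4.52 and 2.57 FPKM on Day 3 (−1.76, adjusted p = 0.00436). Of 14 other ETS factors and Capicua genes 2 were lower and 3 higher, with *Ets1* falling most (−2.58, adjusted p = 0.00709) and *Erf*, an ETS repressor, rising most (1.00, adjusted p = 0.0212). *Cic*, which encodes Capicua, rose from 32.1 and 29.8 FPKM to 58.6 and 66.8 FPKM (0.99, adjusted p = 0.00361).

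**Figure D4:**
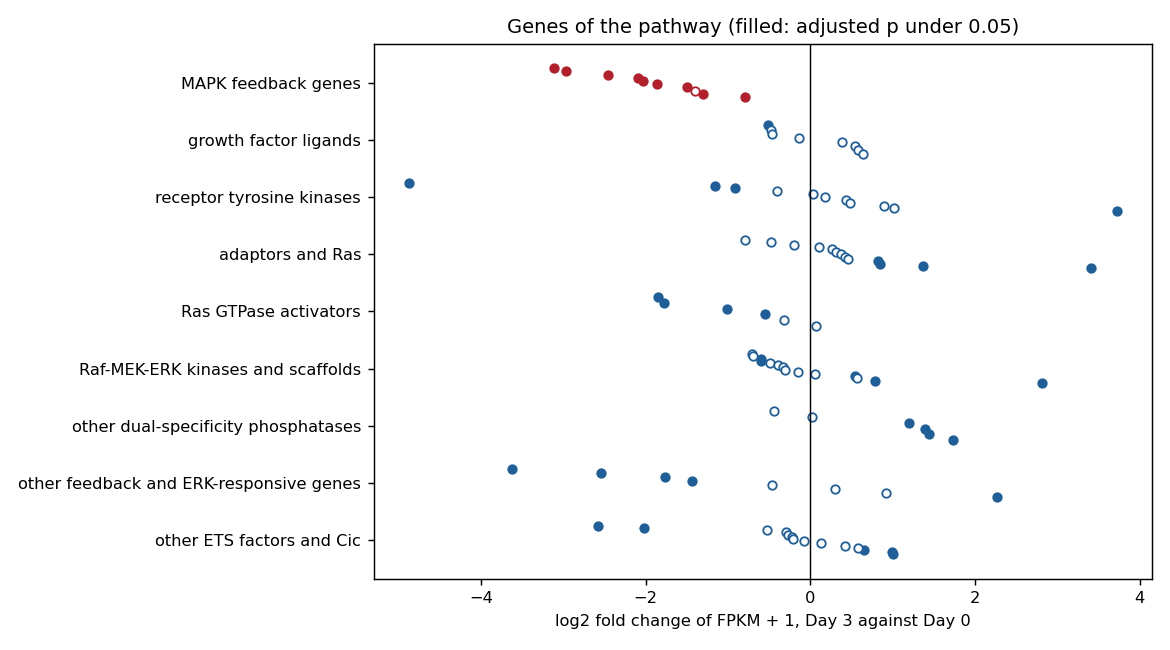
Log2 fold change of FPKM + 1 on Day 3 against Day 0 (x axis) for the 10 feedback genes (red) and the 80 tested genes of the 8 pathway lists (blue, 1 list a row), filled where the adjusted p is under 0.05. The feedback genes lie between −3.11 and −0.79, all below 0, while each other list spans both sides of 0.

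Over the 8 libraries, the patterns closest to 3 of the feedback genes were sought among 6477 genes with a mean of at least 10 FPKM, as a description. They were *Grm5*, *Rangap1*, and *Snrpa1* for *Etv5* (Pearson's r of log2(FPKM + 1) 0.99 each), *Litaf*, *Nmral1*, and *Fen1* for *Dusp6* (0.98 each), and *Hspa14*, *H2afv*, and *Ncaph2* for *Spry4* (0.97 each). *Grm5*, a glutamate receptor gene, was at a mean of 26.6 FPKM on Day 0, 3.93 FPKM on Day 1, and 6.51 FPKM on Day 3. The points are 4 days of 2 libraries, and any gene that is high on Day 0 and low afterwards would correlate with these.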

How the data were processed

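mRNA of cultured mouse OPCs was profiled on 4 days with 2 libraries each, from 80 ng of total RNA with a stranded kit and paired reads. The deposited FPKM were made by the authors with OmicSoft ArrayStudio. The build is mm10 per the submitters' processing notes, and the aligner, gene model, and strand setting are not given in the sources used here.

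The 12208 genes that reached an FPKM of 1 in 2 or more libraries were tested on log2(FPKM + 1), a scale that understates the change of low genes, with limma 3.58.1 in R 4.3.3 (trend, all 8 libraries, day as factor, Benjamini-Hochberg over all genes, call at an adjusted p under 0.05). The fit was checked on simulated data. Fragments were recovered with a length chosen for each gene, within 15% of an annotated transcript length of at least 1000 bases. The length taken was the one that brought the low values nearest to whole numbers, so this closeness is partly fitted. All low values then came within 0.1 of whole numbers for 8 of the 10 feedback genes (not *Spred1* and *Etv1*). For *Dusp4* the length was 2428 bases, against 2740 annotated, chosen on 3 libraries. Depth limits precision: 1 FPKM rests on a few fragments. Coordinates are those of GENCODE M21.

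Days and replicate numbers came from the labels. Replicate differences correlated between days at 0.16 to 0.29 over the 6 pairs of days, so the numbers were taken to pair libraries, and a fit with the replicate as a block was run. No source ties the libraries to separate animals, although the methods call them independent, so p-values measure the spread between these libraries. The feedback genes, the 8 pathway lists (98 symbols, 95 in the table), the marker lists, and the comparisons were chosen with earlier results of these data known. Named beside the feedback genes were the largest riser and faller of each list (1 withheld gene is not reported here) and the 3 closest patterns of *Dusp6*, *Spry4*, and *Etv5*. *Pdgfa*, *Spred3*, *Phlda1*, *Cic*, *Dusp8*, *Dusp10*, and *Dusp16* were added after their values were seen, as were the marker genes given singly.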

Additional observations from a re-analysis of the deposited data

How the results depend on the processing

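Alternatives were a pseudocount of 0.1, no filter, a filter of 10 FPKM in 1 library (which leaves out *Dusp4* and *Spry4*), the replicate block, libraries scaled to 1 sum or by median ratio or quantiles, only the days compared, no trend, and each library left out. A day left with 1 library was assumed to vary like the others. With the replicate block, 9 feedback genes were lower on Day 1 and 10 on Day 3, and *Etv4* on Day 3 was the feedback gene whose call it changed. With 1 library left out, 2 to 9 of the 10 were lower on Day 1 and 6 to 10 on Day 3, and 0 to 1 were higher and 0 to 1 lower from Day 1 to Day 3 and 0 to 1 higher from Day 2 to Day 3. Under median ratio scaling and quantile normalization 1 was higher from Day 1 to Day 3. Of the 80 pathway genes, 7 were higher on Day 1 and 13 under quantile normalization. The cause of these differences was not tested, beyond the smaller number of libraries.

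With 1 library left out, 4 slope differences crossed 0. They ranged from -0.37 to 0.035 for *Dusp4* against *Dusp6*, -0.25 to 0.14 for *Etv1* against *Etv5* (0.02 without Day 1 replicate 1), -0.20 to 0.040 for *Spry1* against *Spry2*, and -0.0054 to 0.37 for *Spry1* against *Spry4*. Depth limits *Dusp4*, *Spry4*, *Etv4*, and *Dusp6* most, whose later libraries hold 0 to 13 fragments each.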
